A study of Mus musculus with 9 samples.

Results

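A set of 10 genes of the immediate early response were followed in the colon of colitic mice, namely the AP-1 subunit genes *Fos*, *Fosb*, *Jun* and *Junb*, the AP-1 partner *Atf3*, the zinc finger genes *Egr1*, *Egr2* and *Egr3*, and *Ier2* and *Dusp1*. They were chosen by gene symbol, and all 10 had 1 row each among the 38087 rows of the deposited table. These genes and the lists of other genes used below were chosen with earlier results of these data known. The colons came from male C57BL/6 mice, 10 to 12 weeks old, with dextran sulfate sodium (DSS) colitis, in which DSS given by mouth injures the colonic epithelium. A day before the colon was taken, the mice had received into a vein human adipose tissue-derived mesenchymal stem cells (AD-MSC), human umbilical cord tissue-derived mesenchymal stem cells (UC-MSC) or phosphate-buffered saline (PBS, Control). Each of the 3 groups had 3 libraries, made from total RNA of the medial colon. All groups had colitis, so the Control values are those of inflamed colon, and both cell types were human cells given to mice. The comparisons asked how each kind of cell altered the colon soon after injection and whether the origin of the cells mattered.

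Immediate early genes are transcribed within minutes of a growth factor, cytokine, injury or handling stimulus, without new protein synthesis, because their promoters are held ready by factors such as SRF and CREB that MAP kinases activate. Fos and Jun proteins pair through leucine zippers to form AP-1, which binds the DNA sequence TGACTCA, whereas EGR proteins bind GC-rich DNA through zinc fingers. In the gut these genes are known for their response to epithelial injury and to epidermal growth factor receptor signaling. *Ier2* encodes a nuclear protein and *Dusp1* a phosphatase that switches MAP kinases off, so these 2 are immediate early genes but not classical DNA-binding factors.

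The authors' table gave, for each gene and group, 1 mean over the 3 libraries, as log2 normalized reads. No spread between mice could be computed from it, so no difference below has a replicate check and none has a p-value. The depth allowed only a lower limit to the error, the counting error of the raw reads, and each 95% interval below covers that counting error only. Summed over genes, the mean raw reads were 8.22e+06 in AD-MSC, 5.03e+06 in UC-MSC and 7.30e+06 in Control. A gene was compared where its mean over both groups was at least 10 normalized reads, and a difference was counted from 2-fold upwards. By this rule 9 of the 10 genes were compared, and *Egr3*, with 2.22, 3.46 and 6.99 normalized reads in AD-MSC, UC-MSC and Control, was too low. The other 9 had reads above the floor of the table in all libraries of every group. Epithelial genes such as the keratin and mucin markers of colon were abundant in every group, with a summed level of 103457 normalized reads in AD-MSC, 102714 in UC-MSC and 95147 in Control over 11 markers.

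The promoters of *Fos*, *Fosb* and *Jun* are shown because *Fosb* and *Jun* stood at opposite ends of the set in AD-MSC against Control, with *Fos* as the partner of *Jun*. Each run is the 250 bases before the start site in RefSeq on GRCm38.p6, 5′ to 3′ on the strand of the gene, at chr12:85473640-85473889 on the plus strand for *Fos*, chr7:19310046-19310295 on the minus strand for *Fosb* and chr4:95052223-95052472 on the minus strand for *Jun*. Capitals mark TGACG, the core of the cAMP response element (CRE) that CREB and ATF proteins bind, TGACATCA, the *Jun* form of the AP-1 and ATF site, and the TATA box TATAAA.
Fos: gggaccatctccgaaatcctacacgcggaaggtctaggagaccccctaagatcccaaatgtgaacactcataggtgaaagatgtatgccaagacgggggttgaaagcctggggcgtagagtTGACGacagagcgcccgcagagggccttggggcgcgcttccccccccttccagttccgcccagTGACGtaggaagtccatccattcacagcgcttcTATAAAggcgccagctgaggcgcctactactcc
Fosb: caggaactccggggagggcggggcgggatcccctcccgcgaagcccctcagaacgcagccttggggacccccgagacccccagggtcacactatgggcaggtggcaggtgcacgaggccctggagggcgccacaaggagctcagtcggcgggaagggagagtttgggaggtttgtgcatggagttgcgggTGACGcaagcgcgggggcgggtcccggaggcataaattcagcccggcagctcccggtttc
Jun: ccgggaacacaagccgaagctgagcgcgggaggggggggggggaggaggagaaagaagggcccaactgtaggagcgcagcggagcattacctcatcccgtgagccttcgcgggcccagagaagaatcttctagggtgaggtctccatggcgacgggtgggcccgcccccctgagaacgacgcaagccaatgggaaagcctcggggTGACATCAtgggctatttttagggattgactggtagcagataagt
The *Fos* run held TGACG at positions -129 and -66 from the start site and TATAAA at -33, the *Fosb* run held TGACG at -60, and the *Jun* run held TGACATCA at -45 and no copy of the CRE core.

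RefSeq promoters were matched for 7 of the 10 genes, *Fos*, *Fosb*, *Jun*, *Junb*, *Egr2*, *Atf3* and *Dusp1*, and each motif was searched on both strands of the 250 bases before the start. The CRE core TGACG, which reads CGTCA on the opposite strand, was present in 5 of the 7, all but *Jun* and *Egr2*, and in 17.9% of 27025 promoters of the same length. The full CRE, TGACGTCA, which contains that core, was present in 1 of the 7, *Dusp1*, and in 1.62% of all promoters. TGACATCA was present in 1 of the 7 and in 3.02% of all promoters. The AP-1 site TGACTCA, which reads TGAGTCA on the opposite strand, and the CArG box that SRF binds were each in 0 of the 7, against 4.43% and 1.4% of all promoters. The GC box GGGCGG was in 6 of the 7, against 32.9%, TATAAA in 1, against 13%, and CCAAT in 2, against 34.5%. These are matches of letters in a short window, and sites farther upstream were not searched.

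Divided by exon length, *Fos* had the highest level of the 10 genes in every group, with 384 normalized reads per exon kb in AD-MSC, 570 in UC-MSC and 572 in Control. *Jun*, *Junb* and *Egr1* came next. *Jun* had 335 normalized reads per exon kb in AD-MSC, 338 in UC-MSC and 259 in Control, and *Egr1* 170 in AD-MSC, 263 in UC-MSC and 316 in Control, so that *Jun* stood above *Egr1* in both MSC groups and below it in Control. *Junb* had 205 in AD-MSC, 305 in UC-MSC and 269 in Control over all exon bases annotated in GENCODE M21. Its place among these genes depends on that length, since counting only the 1809 exon bases inside the span the table gives for *Junb*, an alternative chosen after seeing the data, made it 261 in AD-MSC, 388.5 in UC-MSC and 341.5 in Control, above *Jun* in UC-MSC and above *Jun* and *Egr1* in Control. *Ier2*, *Atf3* and *Dusp1* held the middle of the order in all groups, at 131.5, 102.5 and 53.6 in AD-MSC, 172, 146 and 78.2 in UC-MSC, and 204, 172 and 76.6 in Control. *Fosb*, *Egr2* and *Egr3* were the lowest everywhere, at 7.12, 4.17 and 0.503 normalized reads per exon kb in AD-MSC, 26.4, 9.42 and 0.785 in UC-MSC, and 21.2, 8.32 and 1.59 in Control. Whether neighbours in these orders differ beyond the spread between mice cannot be read from means.

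**Figure D1:**
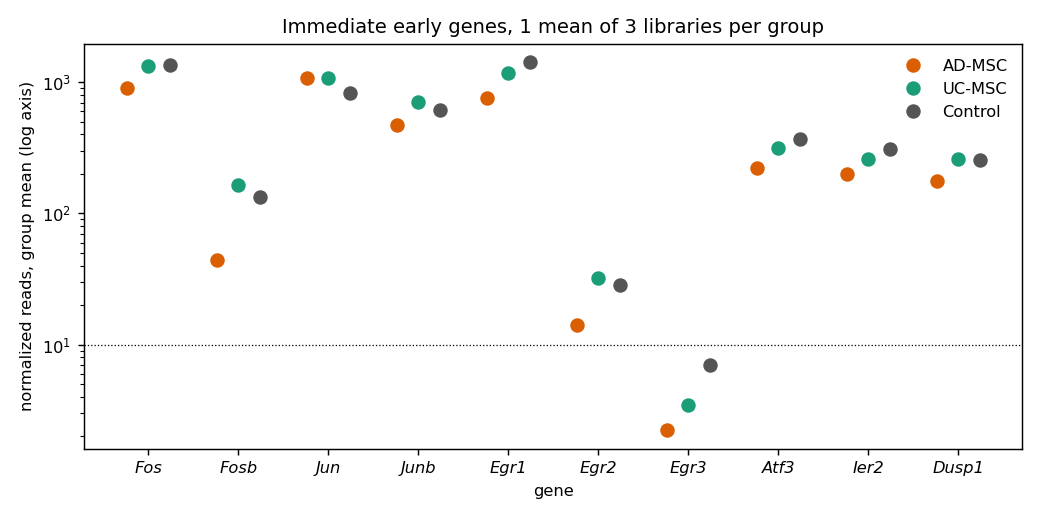
Normalized reads of the 10 genes on a log axis, with 1 point per group (AD-MSC, UC-MSC and Control), each the authors' mean of 3 libraries, and a dotted line at the minimum mean of 10. The AD-MSC point is the lowest of the 3 for every gene but *Jun*, whose points lie at 1069 in AD-MSC, 1077 in UC-MSC and 826 in Control.

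AD-MSC injection went with lower levels of nearly all of these genes. Of the 9 compared, 8 were lower in AD-MSC than Control, where 51.1% of all 14960 genes compared were lower. The median difference of the 9 genes was -0.64 on the log2 scale, against -0.008 for all genes, whose middle 50% lay between -0.23 and 0.21. At least 2-fold lower was 1 of the 9, *Fosb*, against 2.01% of all genes, and 0 were at least 2-fold higher, against 1.69%. From 1.5-fold, 5 of the 9 were lower, *Fosb*, *Egr2*, *Egr1*, *Atf3* and *Ier2*, against 6.62% of all genes. The AD-MSC value was the lowest of the 3 groups for 8 of the 9 genes, against 28.6% of 15040 genes compared over all groups, and it was lowest for *Egr3* as well. All 3 comparisons share group means, so they are not independent of each other. The choice of genes was not blind to these data, so the shares of all genes describe and do not test.

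UC-MSC colons lay close to Control in the same genes. Of the 9 genes, 5 were higher and 4 lower in UC-MSC than Control, where 48.3% of all 15026 genes were higher. None of the 9 reached 2-fold, with 0 lower against 2.66% of all genes and 0 higher against 5.09%. Their median difference was 0.03 on the log2 scale, against -0.017 for all genes, and it became -0.10, against -0.15, once all groups were given the same total of normalized reads, here called equal totals. That scaling lowered every UC-MSC difference from Control by 0.13 and every AD-MSC one by 0.034. It lowered every UC-MSC difference from AD-MSC by 0.099. The list medians below fall by the same amounts, also where no value under equal totals is given.

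Between the 2 kinds of cells, all 9 genes stood higher in UC-MSC than AD-MSC, where 48.8% of all 15074 genes were, although *Jun* was so by only 0.011 and was lower, at -0.089, under equal totals. The median difference was 0.57 on the log2 scale, against -0.010 for all genes, and 0.47 against -0.11 under equal totals. At least 2-fold higher in UC-MSC were 2 of the 9, *Fosb* and *Egr2*, against 4.50% of all genes, and 0 were at least 2-fold lower, against 2.30%. From 1.5-fold, 3 were higher, with *Egr1* as the third, against 12.3% of all genes.

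**Figure D2:**
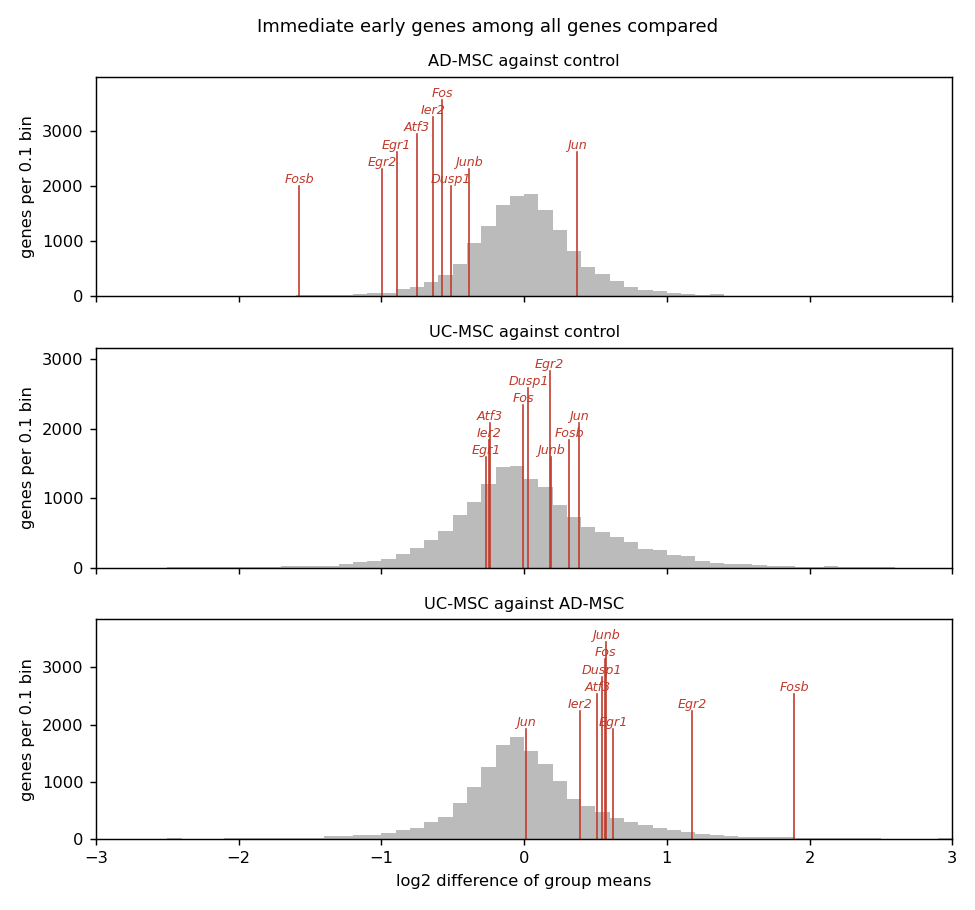
Histograms of log2 differences of group means over all genes compared (genes per bin of 0.1), with a red line for each of the 9 immediate early genes, for each MSC group against Control and for UC-MSC against AD-MSC. In AD-MSC against Control 8 lines stand left of 0, from *Fosb* at -1.58 to *Junb* at -0.39, and *Jun* stands right of it at 0.37, whereas in UC-MSC against Control the lines span only -0.27 to 0.38.

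Among the Fos genes, *Fosb* showed the widest gap between groups. *Fos* (ENSMUSG00000021250, chr12:85473890-85477273, plus strand, 4 exons, GRCm38/mm10) encodes the prototype Fos subunit and had 903 normalized reads in AD-MSC, 1341 in UC-MSC and 1345 in Control. It was thus 1.49-fold lower in AD-MSC than Control (log2 difference -0.58, interval -0.64 to -0.51), just short of the 1.5-fold line, while UC-MSC and Control differed by less than the counting error (-0.005, interval -0.07 to 0.06), or by -0.14 under equal totals. Only 6.87% of all genes were as low or lower in AD-MSC against Control. *Fosb* (ENSMUSG00000003545, chr7:19302721-19310045, minus strand, 4 exons) encodes a Fos subunit that also exists in a shortened, long-lived form, which these counts per gene do not tell apart. It had 44.4 normalized reads in AD-MSC, 165 in UC-MSC and 132.5 in Control. This was 2.98-fold lower in AD-MSC than Control (-1.58, interval -1.83 to -1.32), and 0.628% of all genes were as low or lower. Against AD-MSC, UC-MSC was 3.71-fold higher (1.89, interval 1.63 to 2.16), and 0.697% of all genes were as high or higher. UC-MSC exceeded Control by 1.24-fold (0.32, interval 0.11 to 0.52). The ratio of *Fosb* to *Fos* does not depend on the scaling between groups and was 0.0492 in AD-MSC, 0.123 in UC-MSC and 0.0985 in Control.

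*Jun* was the exception. The gene (ENSMUSG00000052684, chr4:95049034-95052222, minus strand, a single exon) encodes the subunit that Fos proteins need as a partner, since they form no pairs among themselves. It had 1069 normalized reads in AD-MSC, 1077 in UC-MSC and 826 in Control. Both MSC groups were thus 1.3-fold higher than Control, with log2 differences of 0.37 (interval 0.30 to 0.44) in AD-MSC and 0.38 (interval 0.30 to 0.46) in UC-MSC. Under equal totals these were 0.34 in AD-MSC and 0.25 in UC-MSC. Of all genes, 13.8% were as high or higher in AD-MSC and 21.9% in UC-MSC. An antisense gene on the plus strand, *BC042782*, shares 689 bases with *Jun* and had only 8.9, 8.71 and 5.91 normalized reads in AD-MSC, UC-MSC and Control. The ratio of *Jun* to *Fos* reads was 1.18 in AD-MSC, 0.804 in UC-MSC and 0.614 in Control, a 1.93-fold higher ratio in AD-MSC than Control (log2 0.95, counting error 0.048) and a 1.31-fold higher one in UC-MSC (0.39, counting error 0.053). *Jun* reads therefore outnumbered *Fos* reads in the AD-MSC mean and in neither of the others.

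*Junb* (ENSMUSG00000052837, chr8:84976909-84978748, minus strand, a single exon) encodes a Jun protein that is a weaker activator than Jun and can restrain it. It had 472 normalized reads in AD-MSC, 703 in UC-MSC and 618 in Control, so it followed *Fos* rather than *Jun*. It was 1.31-fold lower in AD-MSC than Control (-0.39, interval -0.48 to -0.30) and 1.14-fold higher in UC-MSC than Control (0.19, interval 0.09 to 0.28). Under equal totals the UC-MSC difference was 0.053, near its counting error of 0.049. The ratio of *Junb* to *Fos* reads was 0.523 in AD-MSC, 0.524 in UC-MSC and 0.459 in Control, and that of *Jun* to *Junb* was 2.27 in AD-MSC, 1.53 in UC-MSC and 1.34 in Control. *Atf3* (ENSMUSG00000026628, chr1:191170296-191183340, minus strand, 4 exons), a stress-induced gene whose protein represses as a pair of itself and can also join Jun, had 221 normalized reads in AD-MSC, 315 in UC-MSC and 371 in Control. It was 1.68-fold lower in AD-MSC than Control (-0.75, interval -0.88 to -0.62) and 1.18-fold lower in UC-MSC (-0.24, interval -0.37 to -0.10).

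**Figure D3:**
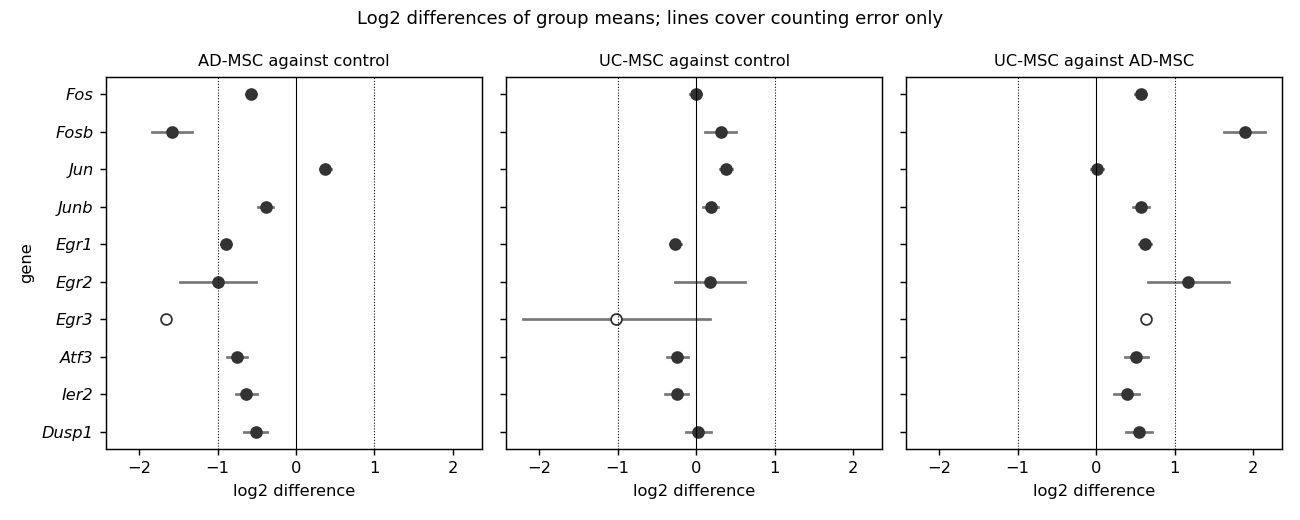
Log2 differences of group means for the 10 genes, each MSC group against Control and UC-MSC against AD-MSC, with lines for the 95% interval from counting error only, dotted lines at 2-fold and open points for *Egr3*, below the minimum mean. *Fosb* passes 2-fold lower in AD-MSC against Control at -1.58 with *Egr2* close to the line at -0.997, and the *Jun* points lie right of 0 in both comparisons with Control, at 0.37 and 0.38.

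The EGR genes were lower in AD-MSC as well. *Egr1* (ENSMUSG00000038418, chr18:34859823-34864984, plus strand, 2 exons), the main EGR gene of this tissue and a direct target of the ERK pathway, had 764 normalized reads in AD-MSC, 1178 in UC-MSC and 1418 in Control. It was 1.86-fold lower in AD-MSC than Control (-0.89, interval -0.96 to -0.83), with 2.55% of all genes as low or lower, and 1.2-fold lower in UC-MSC than Control (-0.27, interval -0.34 to -0.20). Under equal totals the UC-MSC difference was -0.40. *Egr2* (ENSMUSG00000037868, chr10:67535475-67542188, plus strand, 2 exons), known for its roles in myelin formation and lymphocytes, had 14.2 normalized reads in AD-MSC, 32.0 in UC-MSC and 28.2 in Control. Its AD-MSC value lay just short of 2-fold below Control (-0.997, interval -1.48 to -0.52) and past it, at -1.03, under equal totals. A pseudocount of 10 shrank this difference to -0.66. UC-MSC was 2.26-fold higher than AD-MSC (1.18, interval 0.66 to 1.69), a difference that a pseudocount of 10 shrank to 0.80. At this depth UC-MSC and Control were not told apart for *Egr2* (0.18, interval -0.27 to 0.63). *Egr3* (ENSMUSG00000033730, chr14:70077445-70080157, plus strand, 3 exons), a relative that Egr1 can induce, rested on 2.43, 2.48 and 7.97 raw reads per library in AD-MSC, UC-MSC and Control, and the interval of its UC-MSC difference from Control, -2.20 to 0.17, included 0. *Egr1* supplied 97% of EGR family reads per exon kb in AD-MSC, 96.1% in UC-MSC and 96.8% in Control.

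*Ier2* (ENSMUSG00000053560, chr8:84661331-84662852, minus strand, a single exon) had 200.1 normalized reads in AD-MSC, 262 in UC-MSC and 311 in Control. Its level was 1.55-fold lower in AD-MSC than Control (-0.64, interval -0.77 to -0.50) and 1.19-fold lower in UC-MSC than Control (-0.25, interval -0.40 to -0.10), an order shared with *Egr1* and *Atf3*. *Dusp1* (ENSMUSG00000024190, chr17:26505590-26508519, minus strand, 2 exons), which removes phosphate from p38, JNK and ERK, had 178 normalized reads in AD-MSC, 259 in UC-MSC and 254 in Control. It was 1.43-fold lower in AD-MSC than Control (-0.51, interval -0.66 to -0.37), and UC-MSC and Control differed by less than the counting error (0.03, interval -0.12 to 0.18), with a difference of -0.10 under equal totals. Over all 10 genes, with *Egr3* below the minimum mean, 5 had the order AD-MSC below UC-MSC below Control and 4 had AD-MSC below Control below UC-MSC. *Jun* alone had Control lowest. For *Fos*, *Egr2*, *Egr3* and *Dusp1* the interval of UC-MSC against Control included 0, so the order of UC-MSC and Control was not told apart for them. For *Junb* that difference fell to 0.053 under equal totals, near its counting error of 0.049. Of all genes, 28.6% had AD-MSC lowest, and the full orders were not counted over all genes.

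The makeup of the Fos and Jun families was compared per exon length. *Fosl2*, a slower Fos relative, was higher in AD-MSC than Control by 0.24 on the log2 scale, and *Jund*, a Jun relative that most cells make at all times, was lower (-0.24). Fos family reads per exon kb summed to 559.8 in AD-MSC, 808 in UC-MSC and 781 in Control. *Fos* made up 68.6% of them in AD-MSC, 70.5% in UC-MSC and 73.3% in Control, and *Fosl2* made up 27% in AD-MSC, 17.8% in UC-MSC and 16.4% in Control. *Fosb* made up 1.27% in AD-MSC, 3.27% in UC-MSC and 2.72% in Control, and *Fosl1* 3.18% in AD-MSC, 8.46% in UC-MSC and 7.67% in Control. The Jun family summed to 1209 in AD-MSC, 1394 in UC-MSC and 1319 in Control. *Jun* held 27.7% of it in AD-MSC, 24.2% in UC-MSC and 19.6% in Control, and *Jund* held the most in every group, with 55.3% in AD-MSC, 53.8% in UC-MSC and 60% in Control.

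**Figure D4:**
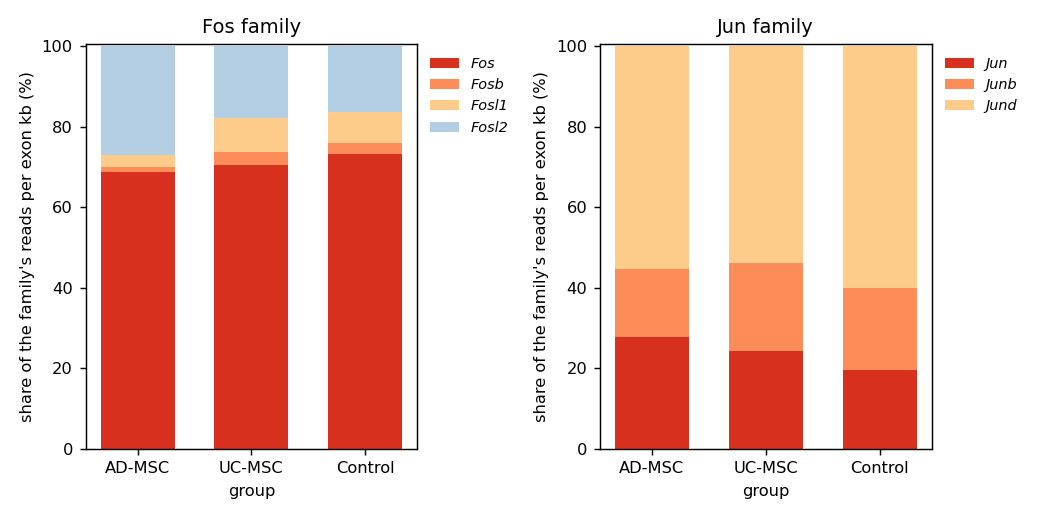
Stacked bars of the share (%) of each gene in the normalized reads per exon kb of the Fos family and of the Jun family, for the AD-MSC, UC-MSC and Control means. The *Fosl2* share is 27% in AD-MSC against 16.4% in Control, and the *Jun* share is 27.7% in AD-MSC against 19.6% in Control.

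In AD-MSC, AP-1 relatives, including ATF, CREB and MAF genes, lay closer to Control in their median than the 9 genes. *Fosl1* lay far from it. Of 17 AP-1 relatives 15 were compared. In AD-MSC against Control 12 were lower, against 51.1% of all genes, and 3 higher, with a median log2 difference of -0.18. At least 2-fold lower was 1, against 2.01% of all genes. For the counts of this list and the lists below, 48.3% of all genes were higher in UC-MSC than Control. In UC-MSC against AD-MSC, 48.8% of all genes were higher. *Fosl1*, a Fos subunit that is itself an AP-1 target, had 36.2 normalized reads in AD-MSC, 139 in UC-MSC and 122 in Control. It was 3.36-fold lower in AD-MSC than Control (-1.75, counting error 0.142) and higher in UC-MSC than AD-MSC by 1.94, and it was the only one of the 15 past 2-fold in any comparison. Of all genes, 4.50% were at least 2-fold higher in UC-MSC than AD-MSC. *Atf5*, a stress response factor, stood highest in AD-MSC against Control at 0.44. In UC-MSC against Control 10 of the 15 were higher and 5 lower, from *Atf5* at 0.77 to *Batf2* at -0.46, with a median of 0.087 that became -0.046 under equal totals. *Creb1*, which encodes CREB, was the lowest of the 15 in UC-MSC against AD-MSC at -0.17, where 12 were higher and 3 lower with a median of 0.23.

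Among the EGR relatives and co-repressors, 8 of 9 genes compared were lower in AD-MSC than Control, against 51.1% of all genes. Their median was -0.23. None reached 2-fold, against 2.01% of all genes lower and 1.69% higher. *Nab1*, a co-repressor that EGR proteins recruit, was the lowest of them at -0.70, with 845 normalized reads in AD-MSC and 1375 in Control, and *Klf9* the highest at 0.16. Against Control, UC-MSC had 6 of 8 higher, with a median of 0.16 that became 0.021 under equal totals, and the extremes were the other EGR co-repressor *Nab2* at 0.74 and the epithelial factor *Klf4* at -0.30. Against AD-MSC, UC-MSC had 7 of 8 higher, with a median of 0.51, *Nab2* at 0.76 and *Klf4* at -0.07.

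Other immediate early genes lay on both sides of Control. In AD-MSC against Control, 31 of 43 compared were lower, against 51.1% of all genes, and 12 higher, with a median of -0.28. At least 2-fold lower were 5 of the 43, against 2.01% of all genes. These 5, named after their values were seen, were *Arc* (25.4 normalized reads in AD-MSC against 72.5 in Control), *Phlda1* (384 in AD-MSC against 1055 in Control), *Socs3* (168 in AD-MSC against 393 in Control), *Errfi1* (563 in AD-MSC against 1203 in Control) and *Trib1* (622 in AD-MSC against 1249 in Control). *Socs3* restrains cytokine receptors that signal through STAT3, and *Errfi1* restrains the epidermal growth factor receptor. *Sgk1*, a kinase that promotes sodium transport, stood highest at 0.77, with 720 normalized reads in AD-MSC and 423.5 in Control, and it was the lowest in UC-MSC against AD-MSC at -1.04. In UC-MSC against Control, 23 of 44 were higher, against 48.3% of all genes, and 21 lower. The median was 0.028 and became -0.11 under equal totals. The extremes there were the neuronal activity gene *Npas4* at 1.22 (counting error 0.399) and the differentiation inhibitor *Id1* at -0.86. *Npas4* had 15.01 normalized reads in UC-MSC and 6.44 in Control. It reached the minimum mean only through its UC-MSC value and was too low to be compared in AD-MSC against Control. In UC-MSC against AD-MSC, 31 of 44 were higher, 6 of them at least 2-fold, against 4.50% of all genes, led by *Ier5l* at 1.61, with a median of 0.36.

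The other brakes on MAP kinase signaling, which share their role with *Dusp1*, had 7 of 12 (58.3%) lower in AD-MSC than Control. This was near the 51.1% of all genes. None was 2-fold lower, against 2.01% of all genes, and the median was -0.24. *Spry4*, an inhibitor of growth factor receptor signaling, was the lowest at -0.97, with 136 normalized reads in AD-MSC and 266 in Control, and the JNK and p38 phosphatase *Dusp16* the highest at 0.30. In UC-MSC against Control, 8 of 13 were higher, against 48.3% of all genes, with a median of 0.091 that became -0.043 under equal totals. *Dusp6* was the lowest at -0.31. *Dusp14* passed 2-fold at 1.25 (counting error 0.363), on 18.3 normalized reads in UC-MSC and 7.74 in Control. At least 2-fold higher was thus 1 of the 13, against 5.09% of all genes. *Dusp14* reached the minimum mean only through its UC-MSC value and was too low to be compared in AD-MSC against Control. In UC-MSC against AD-MSC, 11 of 13 were higher, with a median of 0.47, *Dusp7*, an ERK phosphatase, at 1.27 and *Dusp16* at -0.39. *Dusp7* alone was at least 2-fold higher there, against 4.50% of all genes.

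The RNAs of the kinases and factors upstream of these genes had medians near that of all genes. In AD-MSC against Control, 14 of 25 were lower, against 51.1% of all genes, and 11 higher, none of them 2-fold. Of all genes, 2.01% were at least 2-fold lower and 1.69% at least 2-fold higher. The median was -0.011, and the list ran from *Map2k3*, a kinase that activates p38, at -0.64 to *Elk1*, a partner of SRF, at 0.24. In UC-MSC against Control, 13 were higher and 12 lower, with a median of 0.014 that became -0.12 under equal totals, from *Rps6ka1* at -0.47 to *Elk3* at 0.79. In UC-MSC against AD-MSC, 15 were higher and 10 lower, with a median of 0.090 that became -0.010 under equal totals, from *Map2k6* at -0.43 to *Rps6ka4* at 0.79.

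Genes that AP-1 and EGR factors are known to drive were mostly lower than Control in AD-MSC and mostly higher in UC-MSC. In AD-MSC against Control, 17 of 20 compared were lower, against 51.1% of all genes, with a median of -0.43. At least 2-fold lower were 3, against 2.01% of all genes. These were the epidermal growth factor receptor ligands *Areg* (369 normalized reads in AD-MSC against 981 in Control) and *Hbegf* (270.4 in AD-MSC against 635 in Control) and the urokinase receptor *Plaur* (71.0 in AD-MSC against 158 in Control), the last pair named after their values were seen. The collagenase gene *Mmp13* was the exception, 2.53-fold higher in AD-MSC than Control (53.2 normalized reads in AD-MSC against 21.1 in Control). In UC-MSC against Control, 18 of 21 were higher, 9 of them at least 2-fold, against 5.09% of all genes, with a median of 0.83, and the extremes were *Mmp13* at 3.14, with 185 normalized reads in UC-MSC and 21.1 in Control, and the cyclin gene *Ccnd1* at -0.61. Under equal totals the median was 0.69. In UC-MSC against AD-MSC, 19 of 21 were higher, 14 of them at least 2-fold, against 4.50% of all genes, with a median of 1.22, led by the metalloproteinase gene *Mmp10* with 168.5 normalized reads in UC-MSC and 18.2 in AD-MSC, and *Ccnd1* was the lowest at -0.15. Under equal totals that median was 1.12. *Il11*, named after its values were seen, is counted as at least 2-fold higher in both comparisons with UC-MSC. It reached the minimum mean only through its UC-MSC value, with 30.2 normalized reads in UC-MSC, 5.86 in Control and 3.86 in AD-MSC. It was too low to be compared in AD-MSC against Control.

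**Figure D5:**
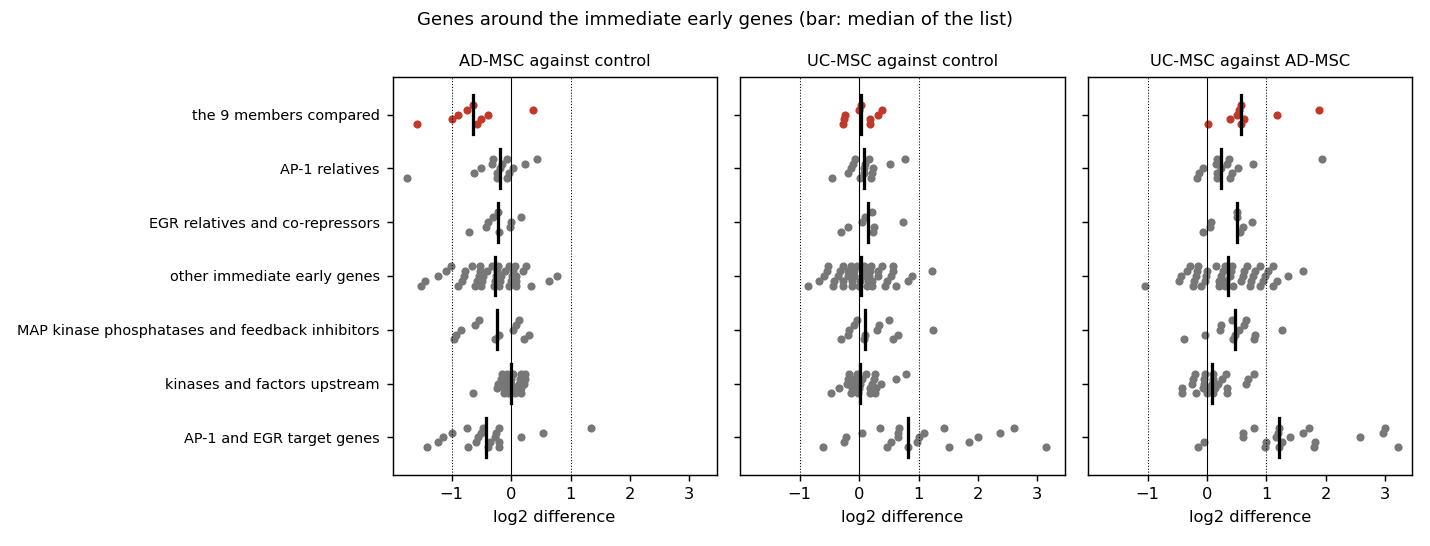
Log2 differences of group means for the 9 immediate early genes (red) and for the genes of 6 related lists (grey), with a bar at each median and dotted lines at 2-fold, in the same 3 comparisons. The medians of the 9 genes are -0.64, 0.03 and 0.57, and the target genes have medians of -0.43, 0.83 and 1.22 in the same order.

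Markers of other cells moved with the groups too, and in whole tissue fewer cells of a type and less RNA per cell cannot be told apart. In UC-MSC the summed level of 10 macrophage markers was 2755 normalized reads, against 1336 in AD-MSC and 1465 in Control. That of 10 neutrophil markers was 616 in UC-MSC, against 189 in AD-MSC and 243 in Control, with *Retnlg* at the floor in Control. Most of that sum was *Ly6g*, named after its values were seen, with 463 in UC-MSC, 149 in AD-MSC and 194 in Control. That of 8 fibroblast markers was 18370 in UC-MSC, against 9802 in AD-MSC and 8532 in Control. All of the macrophage, fibroblast, endothelial and smooth muscle markers compared were higher in UC-MSC than Control, against 48.3% of all genes. Their medians were, in that order, 1.26, 1.06, 0.88 and 0.64. Under equal totals they were 1.13, 0.93, 0.75 and 0.50. In AD-MSC against Control only 2 of the 10 neutrophil markers reached the minimum mean. Both were lower, against 51.1% of all genes, with a median of -0.55. The neutrophil markers below the minimum mean lay on both sides of Control. The medians of the other lists there were 0.077 for macrophages, 0.14 for fibroblasts, 0.27 for endothelium (1448 in AD-MSC, 2128 in UC-MSC and 1143 in Control, summed) and 0.063 for smooth muscle (81874 in AD-MSC, 111320 in UC-MSC and 70954 in Control). The median of the 11 epithelial markers was 0.095 both in AD-MSC and in UC-MSC against Control, the second becoming -0.039 under equal totals. The 8 B cell markers summed to 29.0 in AD-MSC, 114 in UC-MSC and 256 in Control. All 7 compared were lower in AD-MSC than Control by 2-fold or more, against 2.01% of all genes. These 7 reached the minimum mean only through their Control values. The part of these cells in the levels of the immediate early genes was not tested.

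The 10 genes are short, with a median span of 3.29 kb and at most 13.0 kb, against a median of 24.3 kb for the 13453 protein-coding genes compared. Protein-coding genes of at most 13.0 kb had a median difference of -0.081 in AD-MSC against Control, where 59.3% of them were lower, and of -0.091 in UC-MSC against Control, where 57.9% were lower. In UC-MSC against AD-MSC their median was -0.017. The part of gene length in the differences of the immediate early genes was not tested.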

How the data were processed

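Total RNA of the medial colon was made into strand-marking libraries with the SMARTer Pico Input kit for total RNA, which were read on a HiSeq2500. Samples of low RNA integrity had been excluded. Per the submitters' processing notes, bcl2fastq 1.8.4 and DESeq were used with GRCm38/mm10. Strand NGS is named in the study's methods. For the aligner and for strand use in counting, the answer is not given in the sources used here.

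The deposited table held, per gene and group, the authors' mean of raw reads and the authors' mean of log2 normalized reads (reads divided by a library size factor), floored at 1 normalized read. Above 50 raw reads, log2 raw minus log2 normalized stayed within 0.001 of a fixed value in each group for 99.96% of AD-MSC genes, 99.79% of UC-MSC genes and 99.97% of Control genes. Summed over genes, raw means came to 8.22e+06 reads in AD-MSC, 5.03e+06 in UC-MSC and 7.30e+06 in Control. The table holds 1 value per gene and group, so the limma test planned for single libraries was not run.

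Log2 group means were subtracted, with values written as normalized reads being 2 to the power of the authors' log2 mean. Genes were compared where the mean over both groups reached 10 normalized reads, and a fold of 2 was counted. The counting error was taken from 1/(3 × raw reads) as the variance of each group, added up, and put on the log2 scale. Levels between genes were divided by exon length in GENCODE M21. A symbol with more than 1 row (*Atf7*, *Mafg*) was read from its higher row. Beside the 10 genes, 13 lists of other genes were used, 7 of them cell type markers. From each list other than the marker lists the text names the gene highest and the gene lowest in each comparison. Any AP-1 relative or MAP kinase phosphatase gene past 2-fold is named too. The members and lists were chosen with earlier results of these data known. Alternatives were no minimum mean, a minimum of 50, a pseudocount of 10, equal totals, median centring, 1.5-fold and reads in every library. The steps were tested on simulated data. Python 3.11.15, numpy 2.4.6, pandas 2.3.3 and matplotlib 3.10.9 were used.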

Additional observations from a re-analysis of the deposited data

How the results depend on the processing

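The values rest on 1 mean per group of 3 libraries, so the spread between mice, the weight of any single library and the significance of a difference are not known, and counting error is the least the true error can be. No paired analysis was possible because the table holds 1 mean per group and no value of a single library, and leaving out each replicate in turn was not run for the same reason. *Egr2* and *Egr3* rest on the fewest reads of the 10 genes. Exon length inside the span of the table, an alternative added after seeing the data, altered the place of *Junb* by level and that of no gene but its neighbours *Jun* and *Egr1*.

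Over 7 alternatives, 57 medians and counts over the 9 genes stayed close to the reported value (medians within the 95% interval that the median counting error of the 9 genes gives, counts within 1.5 times) and 6 moved. Among the 57, the median in UC-MSC against Control changed sign, being 0.030 and, under equal totals, -0.103. Of values of single genes, 178 stayed within their counting interval and 8 moved, all 8 under equal totals in comparisons with UC-MSC. The 8 were those of *Fos*, *Jun*, *Junb* and *Egr1* in UC-MSC against Control and against AD-MSC. Many of the 178 could not move. No minimum mean, a minimum of 50, 1.5-fold and reads in every library leave the difference of a single gene as it is. Only the pseudocount, equal totals and centring could alter it. Likewise, 1.5-fold could not alter a median. The number of immediate early genes lower by 2-fold in AD-MSC against Control was 1, and it was 2 with no minimum mean, 2 under equal totals and 5 at 1.5-fold. The number lower in UC-MSC than Control was 0 and became 1 with no minimum mean. The number higher in UC-MSC than AD-MSC was 2 and became 1 with a minimum of 50, and 1 also with a pseudocount of 10. Signs changed for 3 differences near 0, namely *Jun* in UC-MSC against AD-MSC (0.011, and -0.089 under equal totals), *Dusp1* in UC-MSC against Control (0.030, and -0.103 under equal totals) and *Fos* in UC-MSC against Control (-0.005, and 0.012 when centred on the median gene). In AD-MSC against Control 8 genes were lower and 1 higher under both scalings.

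Over all genes, the counts at 2-fold lower and higher in AD-MSC against Control were 300 and 253, and they were 1089 and 1145 with no minimum mean, 82 and 64 with a minimum of 50, 134 and 75 with the pseudocount, and 990 and 983 at 1.5-fold. In UC-MSC against Control they were 399 and 765, and they were 1363 and 1708, 153 and 324, 167 and 362, and 1485 and 2169 under these settings. In UC-MSC against AD-MSC they were 346 and 679, and they were 1296 and 1561, 123 and 276, 145 and 355, and 1131 and 1851. Equal totals turned the split to 581 lower and 521 higher in UC-MSC against Control and to 454 and 534 in UC-MSC against AD-MSC.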
